A study of Mus musculus with 6 samples.

Results

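Ligand-gated ion channels are membrane proteins that open a pore when a transmitter binds. The genes described here encode the subunits of the main such families other than the NMDA receptors: AMPA, kainate and delta glutamate receptors (Gria, Grik and Grid genes), GABA-A receptors (Gabr genes, the rho subunits included), glycine receptors (Glra genes and Glrb), nicotinic acetylcholine receptors (Chrn genes), ATP-gated P2X receptors (P2rx genes) and 5-HT3 serotonin receptors (Htr3a and Htr3b). They were taken by symbol, without use of their values, which gave 60 of the 24391 genes listed. Poly(A) RNA was sequenced from Neuro2a, a mouse neuroblastoma cell line, in 3 control libraries (vehicle) and 3 libraries from cells given 5 mM D-serine. All cells were grown in D-MEM with serum and then kept for 18 h in a medium called D-MEM(-SG) in the labels, with 10% serum, so both groups share that change of medium. D-serine is a co-agonist of NMDA receptors, and the comparison asks which transcripts differ when it is present. The labels do not say whether the libraries of a group came from separate cultures, so the p-values measure the spread between these samples, which may be technical.

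As background, these channels are built from several subunits, 1 gene each, and the mix of subunits sets which ion passes, how fast the channel closes and where it sits. Glutamate receptors are tetramers, the acetylcholine, GABA-A, glycine and 5-HT3 receptors are pentamers of a common design, and P2X receptors are trimers. Some subunits form channels alone, such as the nicotinic alpha7 subunit, whereas others, such as the kainate receptor subunit GluK5, reach the membrane as a working channel only together with another subunit. Neuroblastoma arises from the sympathoadrenal lineage, in which ganglionic nicotinic receptors carry fast transmission.

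Total counts ran from 32518483 to 40024265 per library. Of 20 neuronal and sympathoadrenal marker genes, 18 had enough counts for a test. All 20 together summed to 2632 to 2768 CPM in the control libraries and 2766 to 2925 CPM in the D-serine libraries. CPM are the deposited counts scaled to a library size adjusted by TMM, the trimmed mean of M values. Tubb3 was the largest part, at a mean of 536.2 CPM. Alone in this list, Tubb3 was past an adjusted p of 0.05, higher with D-serine (log2 fold change 0.25, edgeR adjusted p = 0.0148). Some members were low, with Th at a mean of 1.965 CPM and Dbh at 1.558 CPM. Nefm had 17 counts and Nefl 2 over all libraries, and neither was tested. The lists of fibroblast, blood, astrocyte and oligodendrocyte markers each summed to at most 6.9 CPM in any library, and Myod1, Lum, Aqp4 and Mag had no count. The skeletal muscle list summed to 289 to 299.3 CPM in the control libraries and 270.7 to 277.2 CPM in the D-serine libraries, nearly all of it from Myh3, at a mean of 282.9 CPM. D-serine replicate 1 stood apart from the other libraries. The slope of its deviation from the gene means on log2 gene length was -0.0717, against -0.0040 to 0.0356 in the other 5 libraries. Results on ion channel genes that rest on it are therefore given with and without it. Between 77.7% and 80.5% of the counts from 2 to 10 were even, against 49.0% to 50.9% of the counts over 100. A count of 2 in this table may therefore stand for 1 sequenced fragment.

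Most of the 60 genes were silent or nearly so. A filter on low counts kept 17 of them for testing (28.3%, against 54.8% of all genes in the table), 20 had a few counts, and 23 had no count in any library (38.3%, against 27.7% of all genes). For a gene with no count, the limit of 3 counts over all 6 libraries is 0.0135 CPM if each count is a separate fragment, and 0.0269 CPM (6 counts) if each fragment was counted as 2; both cover counting error only. Among the genes without a count were Gria1, Gria4, Grik1, Grid1, Gabra4, Gabra6, Gabrb2, Gabrg1, Gabrg3, Gabre, Gabrp, Gabrq, Gabrr3, Glra2, Glra3, Chrna2, Chrna6, Chrnb3, Chrng and P2rx6. The 20 genes under the filter had between 2 and 56 counts in all libraries together, and the highest of them, Htr3b, had a mean of 0.245 TPM (counts divided by the deposited gene length and scaled to the same sum in each library, the scale used here to compare genes). No glycine receptor gene was tested. By family, 1 of 4 AMPA, 1 of 5 kainate, 3 of 19 GABA-A, 6 of 16 nicotinic, 5 of 7 P2X and 1 of 2 5-HT3 genes were kept.

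Grik5 had the highest level per length, with a mean over the 6 libraries of 46.3 TPM (39.7 to 54.0). Chrna3 was at 33.2 TPM (31.2 to 35.4), and its range did not overlap that of Grik5. P2rx3 followed at 19.1 TPM, P2rx7 at 16.2, Htr3a at 14.98, P2rx4 at 14.7, Chrnb2 at 12.8, Chrna7 at 10.6, Gria2 at 8.32 and P2rx2 at 7.002 TPM, and from P2rx3 to P2rx2 each overlapped its neighbour in this order. A gap without overlap separated P2rx2 from P2rx5 (2.50 TPM), Chrna5 (1.90) and Gabrr2 (1.54), and a further gap separated Gabrr2 from Chrnb1 (0.589), Gabrd (0.385) and Chrna1 (0.168 TPM). The highest, Grik5, lay at percentile 67.9 of the mean TPM of all tested genes, so none of these channels was among the most abundant transcripts.

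**Figure D1:**
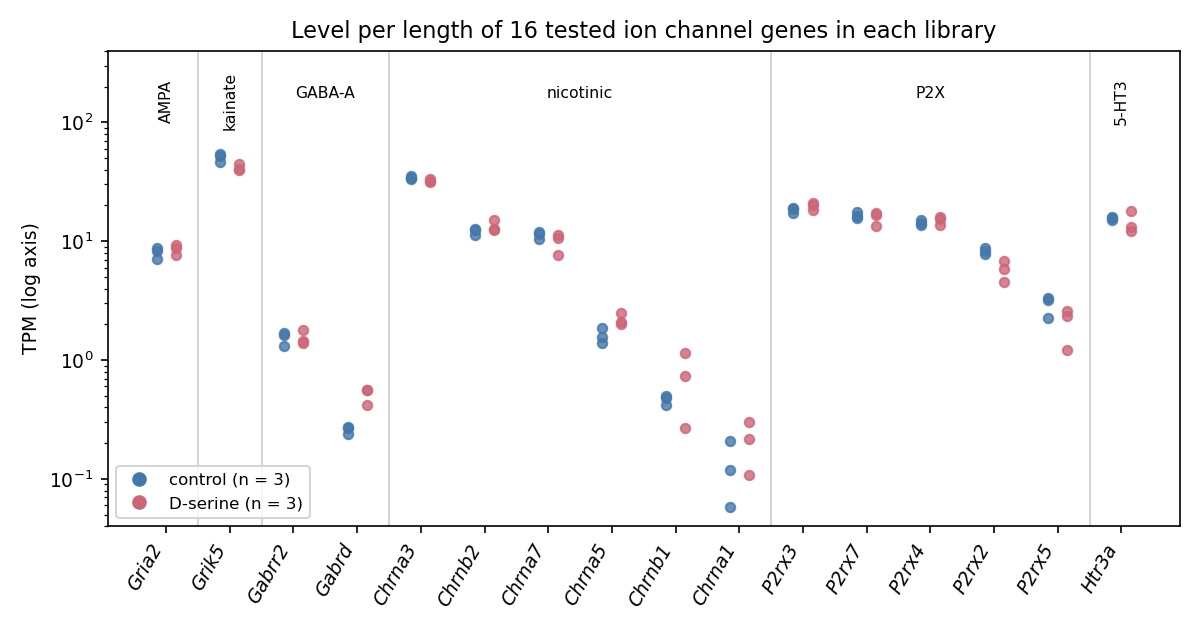
Level per length (TPM, log axis) of 16 tested ion channel genes, grouped by receptor family; each point is 1 library, blue for control and red for D-serine. Grik5 and Chrna3 lie above 30 TPM in every library, and Chrna1, Gabrd and Chrnb1 lie near or below 1 TPM.

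D-serine libraries were then compared with control libraries in a fit over all 13366 tested genes (edgeR quasi-likelihood test, Benjamini-Hochberg adjustment, two-sided). Of the 17 tested ion channel genes, 2 were past an adjusted p of 0.05, Grik5 and P2rx2, and both were lower with D-serine. That is 11.8% of them, near the 9.74% of all tested genes that were called (1302 genes). In the lower direction it is 2 of 17 against 4.9% of all tested genes, and in the higher direction 0 of 17 against 4.84%. The division of all called genes, 647 higher and 655 lower, was 914 and 412 with upper quartile scaling and 944 and 412 with library totals, and Grik5 and P2rx2 were called lower under both. For 6 of the 17 genes (35.3%) the CPM values of the groups did not overlap, against 32.9% of all tested genes. At an unadjusted p under 0.05 there were 4 of 17 (23.5%, against 28.2% of all). The median log2 fold change of the 17 was 0.03, with 9 higher and 8 lower, and that of all tested genes was 0.0053. A share of called genes near that of all genes is not a result about ion channels. In bulk RNA, fewer cells that express a gene and less of its RNA per cell cannot be told apart.

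**Figure D2:**
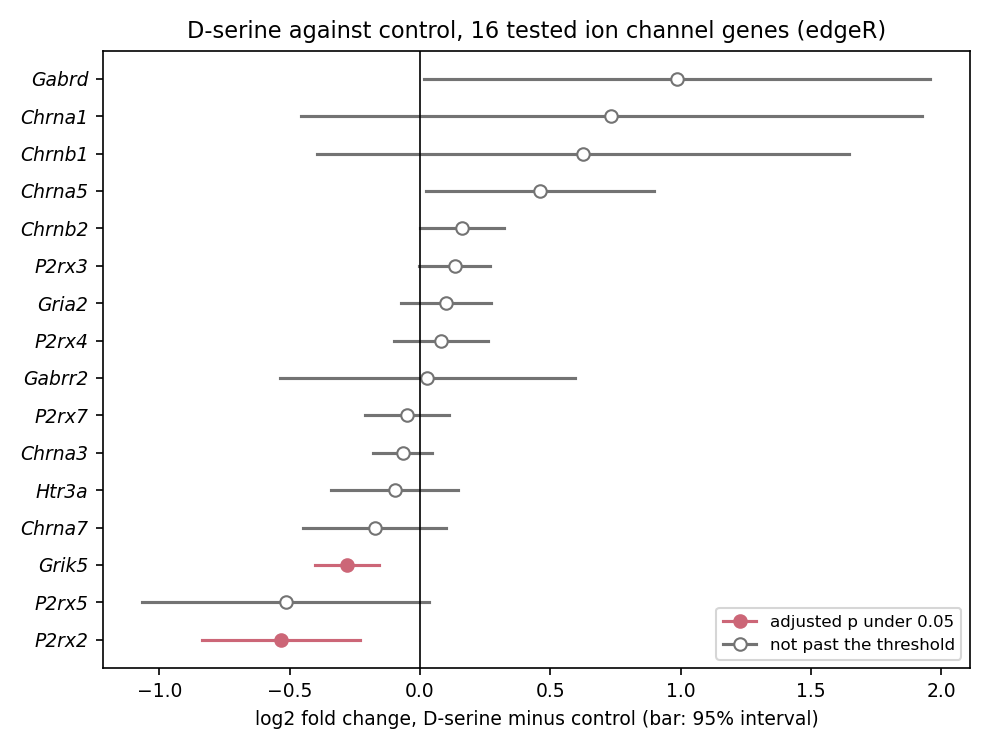
Log2 fold change of 16 tested ion channel genes, D-serine minus control, with its 95% interval (bars) from the edgeR fit. The intervals of Grik5 (-0.40 to -0.16) and P2rx2 (-0.84 to -0.23) lie below 0 and these 2 genes are called; the widest intervals belong to genes under 1 CPM.

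Grik5 encodes the kainate receptor subunit GluK5, which binds glutamate with high affinity and forms channels only with GluK1 to GluK3. The control libraries, in the order of their replicate numbers as in all lists that follow, were at 86.2, 84.8 and 76.7 CPM, and the D-serine libraries at 67.0, 71.2 and 65.8 CPM. Every D-serine library was below every control library. Grik5 fell by 0.28 on the log2 scale (SE 0.056, n = 3 each, edgeR adjusted p = 0.0137), a change of -17.7% with a 95% interval of -24.3% to -10.4%. Without D-serine replicate 1 the log2 difference was -0.27 (adjusted p = 0.00305). The call was lost without control replicate 1 (adjusted p = 0.0687), control replicate 2 (0.0719) or D-serine replicate 3 (0.0602).

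The partner subunits that GluK5 needs were close to absent. Grik1 had no count, Grik2 had 9 counts and Grik3 had 19 counts over the 6 libraries. Grik4, which encodes the other high-affinity subunit, had 4. Grik5 thus made up 99.8% to 100% of the kainate receptor TPM in each library. Neto1 and Neto2, the auxiliary subunits of kainate receptors, were at 0 in all libraries.

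The deposited table places Grik5 on chromosome 7 (25794870 to 25857388, minus strand, on an unnamed build) and P2rx2 on chromosome 5 (110768831 to 110772054, minus strand). Neither shares an exonic base with another gene of the table. The 250 bases before the start of Grik5 are shown because it was called and had the highest level of the family. Those of Chrna3 and Chrnb4 are shown as a pair because the genes are neighbours in 1 cluster and differ most in level, as described below. They are RefSeq sequences of GRCm38.p6, 5′ to 3′ on the gene's strand, and a promoter was listed for 42 of the 60 genes. Capitals mark a GC box (GGGCGG, read on both strands, a site of Sp1-type factors) or an E-box (CAGCTG, the same on both strands, a site of basic helix-loop-helix factors). Only these letters were searched, so other forms of the E-box are neither marked nor counted.
Grik5, chr7:25072370-25072619, minus strand: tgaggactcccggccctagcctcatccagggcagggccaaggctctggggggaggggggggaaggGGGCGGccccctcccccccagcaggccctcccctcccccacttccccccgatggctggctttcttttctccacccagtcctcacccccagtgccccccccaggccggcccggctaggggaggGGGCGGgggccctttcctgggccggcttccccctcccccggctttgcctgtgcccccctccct
Chrna3, chr9:55026563-55026812, minus strand: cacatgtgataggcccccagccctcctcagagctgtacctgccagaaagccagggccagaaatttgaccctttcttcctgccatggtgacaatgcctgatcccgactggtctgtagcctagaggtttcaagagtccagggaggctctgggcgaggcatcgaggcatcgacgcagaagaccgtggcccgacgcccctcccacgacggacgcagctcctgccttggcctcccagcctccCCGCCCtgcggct
Chrnb4, chr9:55048545-55048794, minus strand: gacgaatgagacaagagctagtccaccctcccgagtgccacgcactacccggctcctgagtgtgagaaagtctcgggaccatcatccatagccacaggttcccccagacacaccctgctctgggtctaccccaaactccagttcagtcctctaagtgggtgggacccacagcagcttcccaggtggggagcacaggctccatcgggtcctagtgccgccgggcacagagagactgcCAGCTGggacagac

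The Grik5 window held 2 GC boxes, which begin 185 and 63 bases before the start, and 8 CG dinucleotides. That of Chrna3 held 1 GC box, beginning 13 bases before the start, and 13 CG dinucleotides. The Chrnb4 window held no GC box, 1 E-box of the form searched, beginning 14 bases before the start, and 8 CG dinucleotides. A GC box was found in 32.9% of the windows of 27025 genes and an E-box in 12.8%. Among ion channel genes, a GC box was found in 5 of 11 tested genes and 14 of 31 genes that were not tested, and an E-box in 1 of 11 and 6 of 31, counting 1 window a gene. The median number of CG dinucleotides was 10 in the tested genes, 8 in those not tested and 6 over all windows. In the windows counted, the share with a GC box was 45.5% in the tested genes and 45.2% in those not tested. The genes not tested include some with a few counts, and a second listed window, as Chrna5 has, was not counted. So few genes cannot show whether a GC box goes with expression. A match of letters is a description and not a bound site.

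P2rx2 was the other gene called. It encodes P2X2, which opens to ATP with slow desensitisation and forms mixed trimers with P2X3 in sensory and autonomic neurons. In control P2rx2 was at 7.04, 6.36 and 6.77 CPM, and in the D-serine libraries at 3.80, 5.41 and 4.72 CPM. The groups did not overlap, and D-serine replicate 1 was the lowest library. P2rx2 fell by 0.53 on the log2 scale (SE 0.14, n = 3 each, edgeR adjusted p = 0.0328), a change of -31.0% with a 95% interval of -44.0% to -14.8%. Without D-serine replicate 1 the log2 difference was -0.41 and the call was lost (adjusted p = 0.0595), as it was without control replicate 1 (0.108), control replicate 2 (0.0867), control replicate 3 (0.0852) or D-serine replicate 3 (0.0848).

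Its partner P2rx3, which encodes the fast-desensitising P2X3 subunit of pain-sensing neurons, was not past the threshold. P2rx3 was at 30.4, 33.6 and 33.2 CPM in the control libraries and at 34.0, 35.5 and 37.1 CPM in the D-serine libraries. In CPM the groups did not overlap, with D-serine higher (log2 fold change 0.13, 95% interval -0.0035 to 0.27, edgeR adjusted p = 0.188). In TPM they overlapped (17.4 to 19.1 in control, 18.5 to 20.9 with D-serine). Per length, P2rx2 stood to P2rx3 in a ratio of TPM of 0.506, 0.413 and 0.445 in the control libraries, and of 0.244, 0.333 and 0.277 in the D-serine libraries, without overlap. It was formed after the values of both genes were seen and is given without a test.

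P2rx5, whose product forms channels with P2X2 and other subunits, was at 3.19, 3.10 and 2.23 CPM in the control libraries and at 1.22, 2.45 and 2.28 CPM in the D-serine libraries. D-serine replicate 1 was the lowest, and the other D-serine libraries lay inside the control range. The log2 fold change was -0.52 (95% interval -1.07 to 0.034, edgeR adjusted p = 0.203), and -0.26 without D-serine replicate 1 (adjusted p = 0.49). P2rx4 encodes a subunit found in many tissues, in lysosomes and at the cell surface. It was at 11.8, 12.5 and 11.7 CPM in the control libraries and 11.98, 13.2 and 13.0 CPM in the D-serine libraries, with overlap. P2rx7 encodes the receptor that needs high ATP and is best known from immune cells, and it was at 37.7, 40.6 and 37.0 CPM in the control libraries and 32.8, 38.1 and 40.5 CPM in the D-serine libraries. These values overlapped. The log2 differences were 0.08 for P2rx4 (95% interval -0.099 to 0.26) and -0.05 for P2rx7 (-0.21 to 0.11). P2rx1, found in smooth muscle and platelets, had 46 counts over the 6 libraries. Panx1, a channel that releases ATP, did not pass the threshold (9.62 CPM in control, 8.98 with D-serine, adjusted p = 0.539).

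P2X transcripts were a mixture rather than the product of 1 leading gene. In control, P2rx3 held 30.2% of the summed TPM of the family, P2rx7 27.2%, P2rx4 23.6%, P2rx2 13.7% and P2rx5 4.85%. With D-serine the shares were 34.1%, 26.9%, 25.6%, 9.65% and 3.43%. The P2rx2 share lay between 12.6% and 14.6% in the control libraries and between 8.73% and 10.9% in the D-serine libraries. The sum of the family was 60.7 ± 2.09 TPM in control and 58.6 ± 6.10 TPM with D-serine (SD, n = 3 each), a difference within the spread of the libraries.

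**Figure D3:**
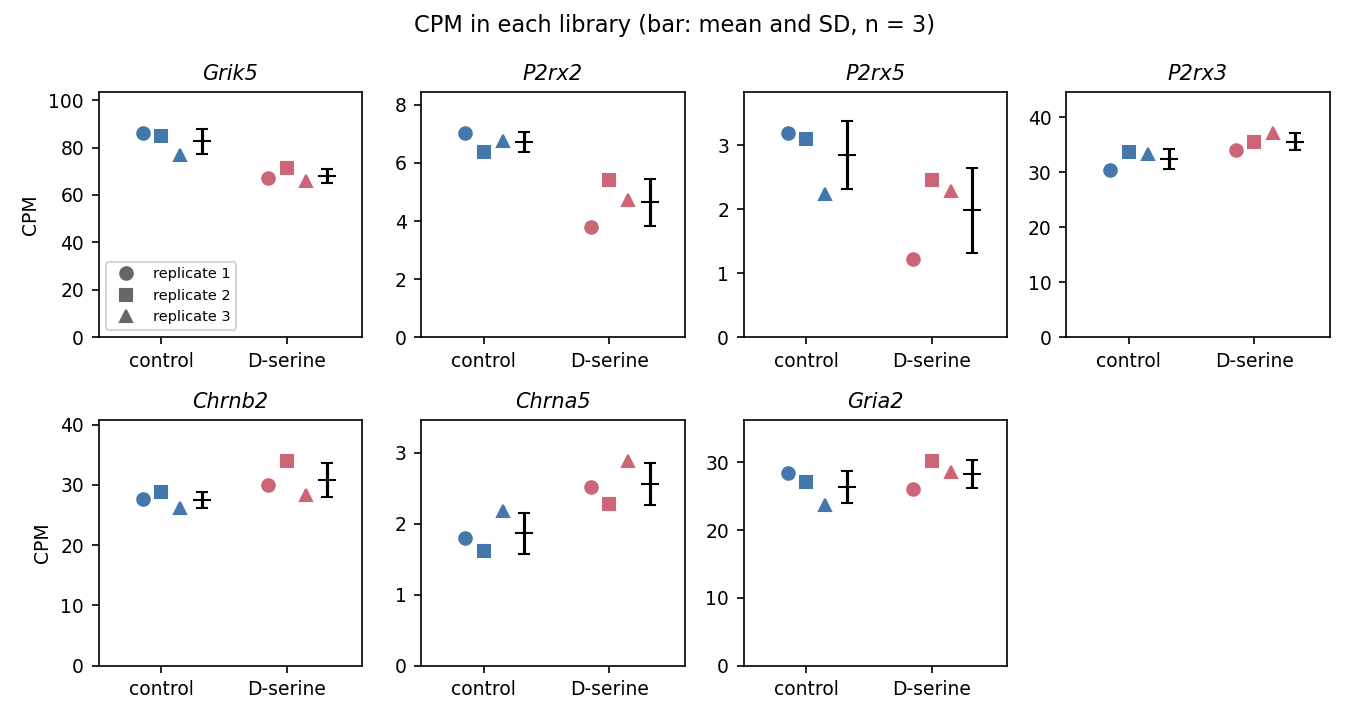
CPM of 7 ion channel genes in each library (circle, square and triangle for replicates 1, 2 and 3; bars give the mean and SD, n = 3; axes start at 0). Grik5 and P2rx2 lie lower in all D-serine libraries, P2rx3 and Chrna5 lie higher without passing the test, and the low P2rx5 value is that of D-serine replicate 1.

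Among nicotinic receptor genes, Chrna3 led. It encodes the alpha3 subunit of the ganglionic receptor, which binds acetylcholine together with a beta2 or beta4 subunit. Chrna3 was at 44.3, 46.5 and 44.2 CPM in the control libraries and 42.8, 43.5 and 42.6 CPM in the D-serine libraries. In CPM the groups did not overlap but lay close together, and in TPM they overlapped. The log2 difference was -0.07 (95% interval -0.18 to 0.045, edgeR adjusted p = 0.425). Chrnb4, its neighbour in the Chrna5-Chrna3-Chrnb4 cluster and the usual beta partner in autonomic ganglia, had 0, 5 and 2 counts in the control libraries and 4, 6 and 10 counts in the D-serine libraries, and it was not tested. Its mean level was 0.079 TPM, against 33.2 TPM for Chrna3.

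The beta subunit that these cells did express was Chrnb2, the common beta subunit of brain receptors. It was at 27.6, 28.9 and 26.1 CPM in the control libraries and 30.0, 33.9 and 28.4 CPM in the D-serine libraries. D-serine replicate 3 lay within the control range, and the difference was not past the threshold (log2 fold change 0.16, 95% interval -0.0012 to 0.32, edgeR adjusted p = 0.18). With each library's trend on gene length removed, Chrnb2 was called higher (log2 fold change 0.22, adjusted p = 0.0379). It shares 8 exonic bases of 5384 with Adar on the opposite strand. Chrna4, with which beta2 forms the main brain receptor, had 34 counts over the 6 libraries.

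Chrna5 encodes an accessory subunit that joins alpha3 or alpha4 receptors and does not form channels with a beta subunit alone. It was at 1.80, 1.62 and 2.18 CPM in the control libraries and 2.52, 2.29 and 2.88 CPM in the D-serine libraries, without overlap. The difference was not past the threshold (log2 fold change 0.46, 95% interval 0.022 to 0.90, edgeR adjusted p = 0.159). Chrna7 encodes the subunit of the homomeric, calcium-permeable alpha7 receptor. It was at 10.0, 9.14 and 10.6 CPM in the control libraries and 7.01, 9.30 and 10.1 CPM in the D-serine libraries, with D-serine replicate 1 below the other 5 libraries. The log2 difference was -0.17 (95% interval -0.45 to 0.10, adjusted p = 0.399), and -0.03 without D-serine replicate 1.

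Subunits of the muscle receptor were at the edge of detection. Chrna1 had a mean of 0.307 CPM and Chrnb1 of 0.535 CPM, Chrnd had 24 counts over all libraries, Chrne had 2 and Chrng had none. The log2 differences of Chrna1 (0.73, 95% interval -0.46 to 1.93) and Chrnb1 (0.63, -0.40 to 1.65) had wide intervals at this depth. The summed muscle markers were lower in the D-serine libraries without overlap, but that sum is mainly Myh3, as given above. Myh3 was not past the threshold (log2 fold change -0.11, edgeR adjusted p = 0.102). The other tested muscle markers, Acta1 (0.51, adjusted p = 0.26) and Ckm (0.61, adjusted p = 0.49), were higher, also not past it. The part of muscle markers in these values was not tested. Chrna9 and Chrna10, the receptor subunits of inner ear hair cells, had 9 and 12 counts.

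**Figure D4:**
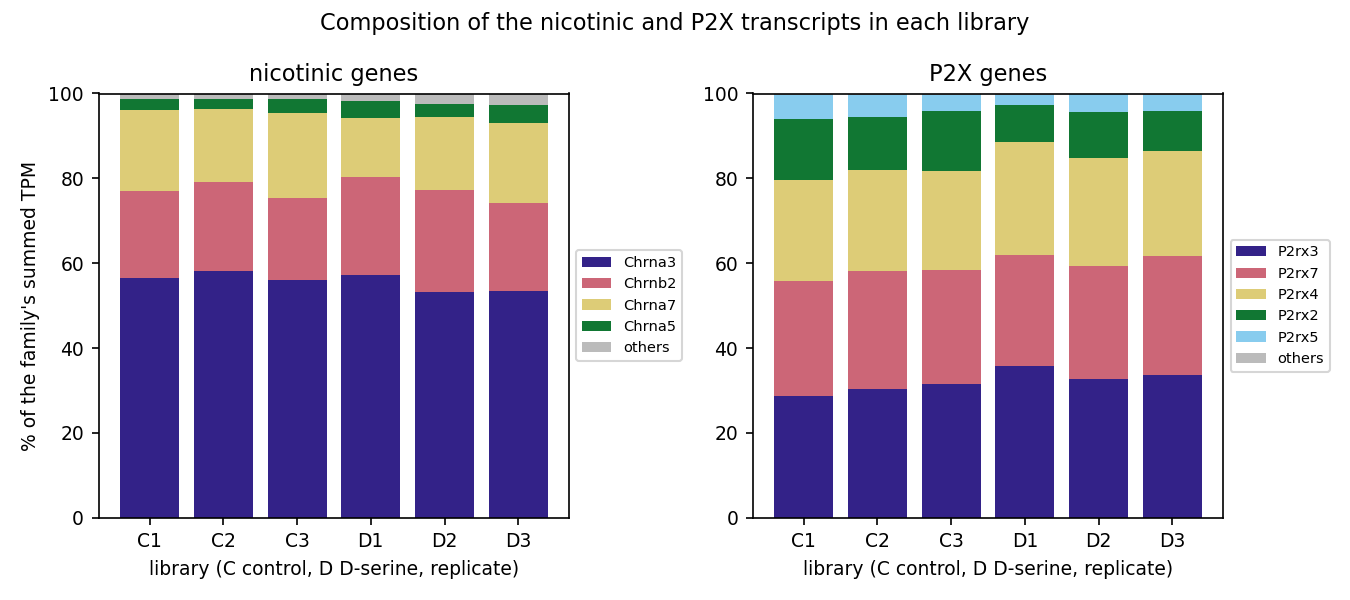
Share (%) of each subunit in the summed TPM of the nicotinic genes (left) and P2X genes (right) in each library; C1 to C3 are control and D1 to D3 D-serine replicates. Chrna3 holds over 50% of the nicotinic TPM in every library, and the P2rx2 segment is smaller in D1 to D3 than in C1 to C3.

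Chrna3 held 57.0% of the nicotinic TPM in control and 54.6% with D-serine, Chrnb2 20.2% and 22.7%, Chrna7 18.8% and 16.6%, and Chrna5 2.69% and 3.72%. The family summed to 60.01 ± 0.926 TPM in control and 59.2 ± 4.16 TPM with D-serine (SD, n = 3 each). Of 12 genes for assembly, modulation and clustering of nicotinic receptors, 5 were tested and 0 were called. Ric3, a chaperone of alpha7, was at 67.5 CPM in the control libraries and 66.7 CPM in the D-serine libraries (adjusted p = 0.864), whereas Tmem35, which encodes the chaperone NACHO, had 2 counts over the 6 libraries.

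Few GABA-A receptor genes had more than a few counts. Gabra5 had 46 counts over all libraries, Gabra2 had 6, Gabra3 had 2, and Gabra4 and Gabra6 had none. Their alpha subunits take part in the GABA site of the receptor. Gabra5 shares 148 exonic bases with Gm9962 on the opposite strand.

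Gabrr2 encodes a rho subunit, which forms GABA-gated channels known from the retina. It was at 1.27, 1.24 and 1.02 CPM in the control libraries and 1.12, 1.36 and 1.12 CPM in the D-serine libraries, with overlap (log2 fold change 0.03, 95% interval -0.54 to 0.59). Gabrd encodes the delta subunit of receptors outside synapses. It had 6, 8 and 8 counts in the control libraries and 18, 12 and 18 in the D-serine libraries. Every D-serine library was higher, but the difference was not past the threshold (log2 fold change 0.99, 95% interval 0.016 to 1.96, edgeR adjusted p = 0.171). Glycine receptor genes had at most 32 counts over all libraries (Glra4), and Glrb, the subunit that anchors these receptors, had 14.

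Of the AMPA receptor genes, only Gria2 was tested. It encodes GluA2, the subunit that keeps calcium out of the channel after its RNA is edited. Gria2 was at 28.4, 27.0 and 23.7 CPM in the control libraries and 26.1, 30.1 and 28.5 CPM in the D-serine libraries. The groups overlapped, and the log2 difference was 0.10 (95% interval -0.071 to 0.27, edgeR adjusted p = 0.438). With the length trend of each library removed it was called higher (log2 fold change 0.21, adjusted p = 0.04). Gria3 had 2 counts in all. Adarb1, which encodes the enzyme that edits Gria2, was at 44.5 CPM in the control libraries and 38.2 CPM in the D-serine libraries and was not past the threshold (log2 fold change -0.22, adjusted p = 0.0865).

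Htr3a encodes the subunit that 5-HT3 receptors cannot do without. It was at 13.7, 13.9 and 13.4 CPM in the control libraries and 11.2, 15.5 and 11.7 CPM in the D-serine libraries, so the D-serine libraries lay on either side of the control range (log2 fold change -0.10, 95% interval -0.34 to 0.14, edgeR adjusted p = 0.607). Htr3b, the partner subunit, had a mean of 0.245 TPM and held 0.97% to 2.93% of the TPM of both genes.

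Partner genes of these receptors, 58 in a list of auxiliary subunits, ligands, chaperones, scaffolds and anchors, were examined in the same fit. Of the 36 that were tested, 6 were called (16.7%, against 9.74% of all tested genes), 4 lower (11.1%, against 4.9%) and 2 higher (5.56%, against 4.84%). The median log2 fold change of the 36 was -0.08. Among 8 tested AMPA receptor auxiliary genes, Cacng7, which encodes the transmembrane AMPA receptor regulatory protein gamma-7, fell from 50.9 ± 2.32 CPM in control (SD, n = 3 each) to 42.2 ± 1.96 CPM with D-serine (log2 fold change -0.27, edgeR adjusted p = 0.016). Among 8 tested scaffold and trafficking genes of glutamate receptors, Pick1, which encodes a protein that binds GluA2, rose from 21.9 ± 0.138 to 25.5 ± 0.973 CPM (0.22, adjusted p = 0.0469). Nsf, which encodes an ATPase of membrane fusion that also binds GluA2, fell from 190.9 ± 1.31 to 173.3 ± 3.50 CPM (-0.14, adjusted p = 0.0476).

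Among 13 tested genes for anchoring and trafficking of GABA-A and glycine receptors, 2 fell and 1 rose. Nlgn2, which encodes neuroligin-2 of inhibitory synapses, fell from 50.6 ± 4.77 to 40.4 ± 1.53 CPM (log2 fold change -0.32, edgeR adjusted p = 0.0157). Trak1, which encodes an adaptor for kinesin transport of mitochondria and of GABA-A receptors, fell from 43.4 ± 0.448 to 35.1 ± 1.22 CPM (-0.31, adjusted p = 0.00967). Plcl1, which encodes a phospholipase-like protein that binds GABA-A beta subunits, rose from 9.05 ± 0.534 to 12.1 ± 0.644 CPM (0.42, adjusted p = 0.0166). Gphn, which encodes the anchor gephyrin, was at 119.9 CPM in the control libraries and 110.7 CPM in the D-serine libraries and was not past the threshold (-0.12, adjusted p = 0.0956). All 6 called genes had no overlap between the groups, which is no separate support, because the same values gave the calls. Of all tested genes, 32.9% had no overlap. Each of the 6 called genes lost its call in at least 1 of the 6 fits that left out 1 library. D-serine replicate 1 was the lowest library for Cacng7, Nsf, Nlgn2 and Trak1. Over 17 alternative settings, the fit without that library among them, their log2 fold changes kept their sign. They ran from -0.36 to -0.24 (Cacng7), -0.15 to -0.11 (Nsf), -0.39 to -0.26 (Nlgn2) and -0.33 to -0.26 (Trak1). There were 2 called partner genes without control replicate 1, and 1 without control replicate 2, control replicate 3 or D-serine replicate 3. The number called over all tested genes varied between these fits as well, as given in the closing section. Nsf was not past the threshold with upper quartile scaling (adjusted p = 0.098), library totals (0.0955) or no filter on low counts (0.0527), nor was Pick1 with limma-voom (0.0508).

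**Figure D5:**
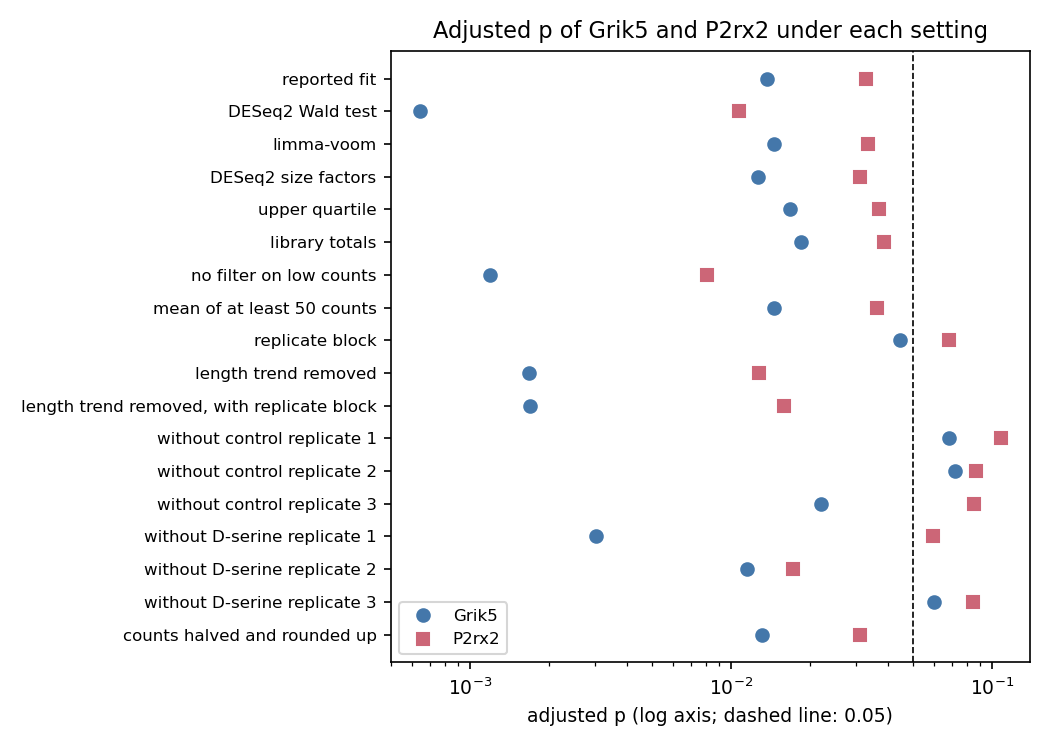
Adjusted p (log axis) of Grik5 (circles) and P2rx2 (squares) in the reported fit and 17 other settings; the dashed line is the threshold of 0.05. Grik5 lies past the threshold in 14 of the 17 and P2rx2 in 11, and each misses it mainly when 1 library is left out.

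Grik5 was past the threshold in 14 of 17 alternative settings, with adjusted p-values from 0.000644 to 0.0719, and P2rx2 in 11 of 17, with adjusted p-values from 0.00806 to 0.108. The log2 difference lay between -0.33 and -0.25 for Grik5 and between -0.66 and -0.41 for P2rx2. The number of called ion channel genes was 0 when control replicate 1, control replicate 2 or D-serine replicate 3 was left out, and 1 when control replicate 3 or D-serine replicate 1 was. Calls over all tested genes also changed with the library left out, with the fewest without control replicate 2, as given in the closing section. The lost calls are therefore not particular to these genes.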

How the data were processed

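Counts were analysed from 6 poly(A) libraries of Neuro2a cells. A table of unnormalized counts for each gene, with its summed exon length, was deposited by the authors. Reads were processed with bcl2fastq, Trim Galore, HISAT2 and featureCounts from Subread, per the submitters' processing notes, which name GRCm38 and mm10. Only 1 of the 60 genes had the same start as in RefSeq GRCm38.p6, so deposited coordinates are given without a build. The strand and multi-mapping settings are not given in the sources used here. The deposited length column, classed as other, served for TPM.

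Genes kept by filterByExpr (13366) were tested with edgeR 4.0.16 (R 4.3.3): TMM scaling, quasi-likelihood F test, Benjamini-Hochberg adjustment over all of them, threshold 0.05. The standard error is the log2 fold change divided by the square root of F, and 95% intervals use the fit's degrees of freedom. CPM and TPM were computed from the counts. In simulated counts of 13273 genes, 95.9% of genes changed by 1 on the log2 scale and 84.8% of those changed by 0.5 were called. The simulation used the same dispersion for all genes, without a length trend, a deviating library or doubled counts. These shares are therefore not the power of the real comparison, and a change as small as that of Grik5 was not simulated. Pairs of libraries within a group differed by a chi-square of 3.88 to 17.7 per degree of freedom. The values 17.7 and 13.9 came from pairs with D-serine replicate 1. No pair was therefore taken as the same library, and each library was kept as a replicate. The check does not show that they came from separate cultures. Exon overlaps came from bedtools 2.31.1. Alternatives used DESeq2 1.42.0 and limma 3.58.1, other scalings and filters, the replicate number, gene length (a spline with 5 degrees of freedom) and each library left out.

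Every library's value is given for tested members with a mean of at least 1 CPM or an adjusted p under 0.05, and partner genes are named where called, at most 8. Other genes are named after their values were seen. Some genes, 1 of the 17 tested ion channel genes among them, are counted but not reported here by name. The members, lists, rule and alternatives were chosen with earlier results of these data known.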

Additional observations from a re-analysis of the deposited data

How the results depend on the processing

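The 6 fits that left out 1 library gave from 68 to 1699 called genes (47 to 783 higher, 21 to 916 lower), from 0 to 2 called ion channel genes (all lower, 0 to 2) and from 1 to 8 called partner genes. The lowest count of all genes came without control replicate 2. The cause was not tested. Removal of the length trend gave 2043 called genes (1023 higher, 1020 lower), 4 called ion channel genes (2 higher, Gria2 and Chrnb2) and 10 partner genes. With the replicate number as a block there were 298 called genes (178 higher, 120 lower), 1 ion channel gene (Grik5, lower) and 2 partner genes. With the length trend removed and the block there were 4 ion channel genes, 2 of them higher. The correlations of the deviations of same-numbered libraries were -0.0687, 0.0197 and -0.0187, against -0.0761 to 0.0877 for libraries with different numbers. They gave no sign of pairing, but with 3 libraries per group they cannot settle whether a number marks a shared preparation. Lower genes numbered 412 with upper quartile scaling or library totals and 987 with no filter. Halving the counts, an alternative added after seeing the data, left 2 ion channel genes called.

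Among the 17 tested ion channel genes, the sign turned for Gabrr2 and P2rx7, both near 0. Gabrr2 ran from -0.070 to 0.084 when 1 library was left out (-0.066 without control replicate 3), and was at -0.011 with the length trend removed and -0.0097 with the block as well. P2rx7 ran from -0.12 to 0.031 when 1 library was left out (the highest without D-serine replicate 1), and was at 0.011 with the length trend removed and 0.010 with the block as well. For genes under 1 CPM, depth limits what can be seen.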
